A study of Rattus norvegicus with 4 samples.

Results

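The interferon regulatory factors (IRFs) are transcription factors that share an amino-terminal DNA-binding domain and regulate interferon genes and interferon-stimulated genes. Their transcripts were examined in rat liver after inhalational anesthesia. Members were taken by gene symbol, and Irf1, Irf2, Irf3, Irf4, Irf5, Irf7, Irf8, and Irf9 gave 8 of the 16992 genes in the expression tables. Total RNA of the left lateral liver lobe was sequenced from 4 male Wistar rats, purchased at 6 weeks of age, 1 per condition. After food and water had been withdrawn, anesthesia was given through a nose cone with 4.5% sevoflurane or 6% desflurane. The gas flow was 3 L/min and was enriched in oxygen. The rats were maintained under anesthesia for 6 hours (sevoflurane 6 h and desflurane 6 h) or were sacrificed after less than 1 minute, on loss of consciousness (sevoflurane control and desflurane control). The controls had therefore also inhaled the agent briefly. Time without food and time in the oxygen-enriched gas were longer in the 6 h rats and cannot be told apart from the agent. The samples were whole liver pieces that included blood cells, in which fewer cells of a type and less RNA per cell cannot be told apart.

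The expression values were TPM, a transcript level relative to library size and transcript length that can be compared between genes. A gene was called lower or higher when its TPM was above 2 in the library with the higher value and differed more than 2-fold, the rule of the study. With 1 library per condition, no difference between these libraries could be checked against replicates, and no p-value was calculated. Each 6 h library was therefore set beside its own control and also beside the control of the other agent. The difference between the 2 controls is given as the only measure of how far 2 rats without prolonged anesthesia differed. The qPCR of the study, in more than 1 rat per condition, reported Irf1 and Mx2 lower with both agents and was not analysed here. The libraries corresponded to 4.47 to 5.40 Gb of aligned sequence and held 9474 to 9695 genes above 2 TPM. The 8 hepatocyte markers, including Alb and Hnf4a, had summed TPM of 109312 to 125544 and none was called against the own control; Tat, an amino acid catabolism gene, was called higher with sevoflurane against the desflurane control. Genes of pancreatic acinar cells, which are not markers of any liver cell, had a summed TPM of 28.9 in the sevoflurane control and of 0.167 to 0.738 in the other libraries. This library therefore stood apart, its part in the results below was not tested, and the IRF values with sevoflurane are also given against the desflurane control.

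In liver, IRFs act in hepatocytes and in resident immune cells such as Kupffer cells. IRF3, IRF5, and IRF7 are activated by kinases downstream of nucleic acid sensors and Toll-like receptors and drive the interferon genes. IRF9 is the DNA-binding subunit of the complex ISGF3, which binds the interferon-stimulated response element (ISRE) after type I interferon. IRF1 is itself induced by interferon gamma through a gamma-activated site (GAS) and activates genes of antigen presentation and defense, and IRF2 binds the same elements and can oppose it. IRF4 and IRF8 are factors of lymphoid and myeloid cells that bind DNA together with partners such as PU.1.

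The promoters of 7 members were found in the RefSeq table of build GRCr8, which spans 250 bases before to 50 bases after each start site. Irf2 had no entry. The start site lay at the gene boundary for Irf1, Irf3, and Irf8. It lay inside the gene by 112 bases for Irf4, 414 for Irf9, 520 for Irf7, and 541 for Irf5. The windows of Irf5, Irf7, and Irf9 were therefore wholly within the annotated gene. GAS was searched as TTCNNNGAA, which reads the same on both strands, and the ISRE core as GAAA, any 2 bases, and GAAA on both strands. GAS was present in the windows of Irf1, Irf8, and Irf9 (3 of 7 members), compared with 8.87% of the 33469 promoters of this length. The ISRE core was present in Irf7 (1 of 7), compared with 3.92% of all promoters. The shorter IRF core AANNGAAA, which overlaps the ISRE core and was added after the data were seen, was present in Irf3, Irf7, and Irf9 (3 of 7), compared with 26.4%. A match describes these letters only and is not evidence of binding. The windows below show the elements in the member that changed most (Irf1), in its relatives with the same element (Irf8) or with the ISRE core (Irf7), and in the ISGF3 subunit Irf9 and the sensor-activated Irf3, with GAS, the ISRE core, or the IRF core in capitals.
Irf1 (GAS, GRCr8 chr10:38417735-38417934, plus strand, bases -200 to -1 from the start site): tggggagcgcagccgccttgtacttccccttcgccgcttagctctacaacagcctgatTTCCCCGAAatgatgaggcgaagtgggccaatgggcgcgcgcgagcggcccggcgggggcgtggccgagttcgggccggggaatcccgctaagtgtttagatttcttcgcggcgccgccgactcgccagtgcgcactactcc
Irf8 (GAS present at 2 places, GRCr8 chr19:65699094-65699153, plus strand, bases -190 to -131): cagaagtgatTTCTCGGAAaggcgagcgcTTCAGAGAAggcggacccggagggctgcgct
Irf7 (ISRE core, GRCr8 chr1:205800073-205800102, minus strand, bases -79 to -50): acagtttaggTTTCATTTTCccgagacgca
Irf9 (IRF core, GRCr8 chr15:33065754-33065783, plus strand, bases -82 to -53): ccctggaggagAACTGAAActtagggtggg
Irf3 (IRF core, GRCr8 chr1:104616565-104616594, plus strand, bases -43 to -14): aataccattagAAAGGAAAgtcccaacgct

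All members except Irf4 were above 2 TPM in every library. Irf3 was the most abundant IRF and Irf2 the next in all 4 libraries, and the order Irf3, Irf2, Irf7, Irf9, Irf1, Irf8, Irf5, Irf4 was shared by both controls. Irf1, above Irf8 and Irf5 in both controls, was below both genes after 6 h of sevoflurane and below Irf8 after 6 h of desflurane. The positions of Irf7 and Irf9 were exchanged in both 6 h libraries, but their TPM differed less within each library than either gene differed between the 2 controls. The summed TPM of the 8 genes was 202.5 in the sevoflurane control, 147 in the sevoflurane 6 h library, 173.7 in the desflurane control, and 161 in the desflurane 6 h library. The share of Irf1 in this sum was 11.7%, 3.20%, 11.0%, and 5.37% in the same order, and the share of Irf3 was 25.0%, 43.7%, 36.3%, and 40.7%.

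**Figure D1:**
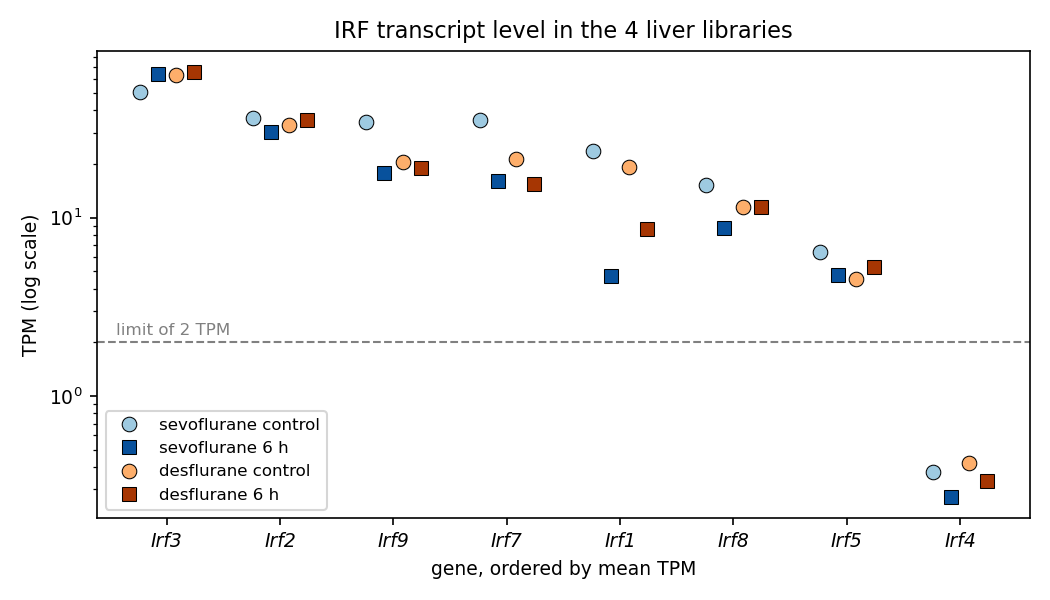
TPM (log axis) of each IRF gene in the 4 liver libraries, with circles for controls and squares for 6 h libraries, genes ordered by mean TPM, and a dashed line at 2 TPM. Both Irf1 squares (4.71 and 8.65) lie below both circles (19.1 and 23.8), and all Irf4 values lie below the line.

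Irf1 was the member with the largest change with both agents. It lies at rn6 chr10:39109530-39116532 on the plus strand. Its TPM was 23.8 in the sevoflurane control, 4.71 at sevoflurane 6 h, 19.1 in the desflurane control, and 8.65 at desflurane 6 h, with an average coverage per base of 42.7, 7.97, 35.8, and 14.6. Both controls were high and both 6 h libraries were low, with no overlap between them. Irf1 was 5.05-fold lower with sevoflurane than in its own control (log2 fold change -2.34) and 4.06-fold lower than in the desflurane control (-2.02). It was 2.21-fold lower with desflurane than in its own control (-1.15) and 2.75-fold lower than in the sevoflurane control (-1.46). The controls differed 1.24-fold, and Irf1 was 1.84-fold higher after desflurane than after sevoflurane, which is short of the 2-fold limit.

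Few genes changed as much as Irf1 in this direction. Among the 9136 genes above 2 TPM in all libraries, 11 (0.120%) had a lower fold than Irf1 with sevoflurane and 62 (0.679%) with desflurane, each against its own control. Irf1 was also among the 17 genes (0.186%) with both 6 h libraries more than 2-fold below both controls. The others were Bmf, Cish, Cml2, Dnajc12, Edar, Gadd45g, Ihh, Lyc2, Mbl2, Mx2, Nrep, Osgin1, RGD1309362, RT1-N1, Stac3, and Tsc22d1, of which Mx2 is an interferon-induced GTPase and RT1-N1 a class I MHC gene. The list was taken from these values and is a description.

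Irf2, the relative that binds the same elements as Irf1, lies at rn6 chr16:48583450-48692476 on the minus strand. Its TPM was 36.2 in the sevoflurane control, 30.4 at sevoflurane 6 h, 33.2 in the desflurane control, and 35.4 at desflurane 6 h. The groups overlapped, the highest value was 1.19-fold above the lowest, and no comparison called Irf2. The log2 fold change against the own control was -0.25 with sevoflurane and 0.09 with desflurane. As a result, the ratio of Irf1 to Irf2 TPM was 0.656 and 0.576 in the sevoflurane and desflurane controls and 0.155 and 0.245 in the respective 6 h libraries.

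Of the factors activated downstream of sensors, Irf7 was the one with a call. It lies at rn6 chr1:214249388-214252455 on the minus strand. Its TPM was 35.4 in the sevoflurane control, 16.0 at sevoflurane 6 h, 21.3 in the desflurane control, and 15.5 at desflurane 6 h. Both 6 h libraries were below both controls, but the controls themselves differed 1.66-fold. Irf7 was 2.21-fold lower with sevoflurane than in its own control and 1.33-fold lower than in the desflurane control. With desflurane it was 1.37-fold lower than in its own control and 2.28-fold lower than in the sevoflurane control. The 2-fold limit was thus passed against the sevoflurane control and not against the desflurane control, whichever agent was given.

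Irf3 lies at rn6 chr1:100992405-100997199 on the plus strand and overlaps Bcl2l12, annotated on the opposite strand at 100984550 to 100993269; whether the authors' quantification used strand is not given in the sources used here. The TPM of Irf3 was 50.7 in the sevoflurane control, 64.2 at sevoflurane 6 h, 63.1 in the desflurane control, and 65.6 at desflurane 6 h. The sevoflurane control was low, and the other libraries were close together. The log2 fold change was 0.34 with sevoflurane and 0.06 with desflurane against the own control, and 0.02 with sevoflurane against the desflurane control. The ratio of Irf7 to Irf3 was 0.699 in the sevoflurane control, 0.338 in the desflurane control, and 0.249 and 0.236 after 6 h of sevoflurane and desflurane.

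Irf5, a factor of myeloid and B cells, lies at rn6 chr4:56805132-56816271 on the plus strand. Its TPM was 6.42 in the sevoflurane control, 4.74 at sevoflurane 6 h, 4.51 in the desflurane control, and 5.27 at desflurane 6 h. The controls held both the highest and the lowest value, 1.42-fold apart, so that the sign of the change depended on the control. The log2 fold change was -0.44 with sevoflurane and 0.22 with desflurane against the own control, and 0.07 and -0.29 against the control of the other agent.

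Irf9, the DNA-binding subunit of ISGF3, lies at rn6 chr15:34282936-34288139 on the plus strand. Its TPM was 34.4 in the sevoflurane control, 17.9 at sevoflurane 6 h, 20.6 in the desflurane control, and 18.9 at desflurane 6 h. The sevoflurane control was high, and the other libraries were within a narrow range. Irf9 was 1.92-fold lower with sevoflurane than in its own control, just short of the limit, and 1.15-fold lower than in the desflurane control. With desflurane it was 1.09-fold lower than in its own control and 1.82-fold lower than in the sevoflurane control. The controls differed 1.67-fold.

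Irf8, the myeloid and B cell factor, lies at rn6 chr19:54318463-54335105 on the plus strand. Its TPM was 15.3 in the sevoflurane control, 8.77 at sevoflurane 6 h, 11.4 in the desflurane control, and 11.5 at desflurane 6 h. The sevoflurane 6 h library was low, and both desflurane libraries were nearly equal. Irf8 was 1.74-fold lower with sevoflurane than in its own control and 1.30-fold lower than in the desflurane control, which differed 1.34-fold from each other. The log2 fold change with desflurane was 0.01 against the own control, whereas Irf8 was 1.33-fold lower than in the sevoflurane control.

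Irf4, which acts in lymphocytes and plasma cells, lies at rn6 chr17:34886746-34905117 on the minus strand. Its TPM was 0.373 in the sevoflurane control, 0.272 at sevoflurane 6 h, 0.421 in the desflurane control, and 0.334 at desflurane 6 h. The average coverage was 0.461 to 0.788 per base. All values were below the limit of 2 TPM, so that Irf4 could not be called, and whether the libraries differed was not tested.

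By the rule of the study, 2 members (Irf1 and Irf7) were called lower with sevoflurane against its own control, where 3.38% of the 9531 genes above the limit were called lower. None was called higher, where 2.30% of 9474 genes were. With desflurane, 1 member (Irf1) was called lower against its own control, compared with 1.53% of 9572 genes, and 0 were called higher, compared with 2.84% of 9695 genes. Exchanging the controls exchanged the counts. Sevoflurane 6 h against the desflurane control gave 1 lower member (Irf1; 2.64% of all genes) and 0 higher members (2.60%), and desflurane 6 h against the sevoflurane control gave 2 lower members (Irf1 and Irf7; 1.64%) and 0 higher members (2.89%). Irf1 was therefore called lower against either control with both agents.

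The controls and the 6 h libraries were also compared with each other. No member was called between the 2 controls, where 1.20% of genes were lower and 1.19% higher in the desflurane control. No member was called between the 6 h libraries, where 1.21% were lower and 2.80% higher with desflurane. Of the 7 members above 2 TPM throughout, Irf1, Irf7, and Irf9 had both 6 h libraries below both controls, a pattern of 13.0% of the 9136 genes. Irf3 had both above, as did 34.4% of genes, but after median-of-ratios scaling its desflurane control was the highest library. Irf1, Irf7, and Irf9 kept their pattern with this scaling, and Irf2 and Irf8 joined it. The share of all genes with the pattern was not calculated on the scaled values, so these members cannot be set beside it. The log2 fold changes with desflurane of Irf2, Irf3, and Irf8 against the own control also turned below 0 with this scaling (-0.04, -0.07, and -0.12).

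**Figure D2:**
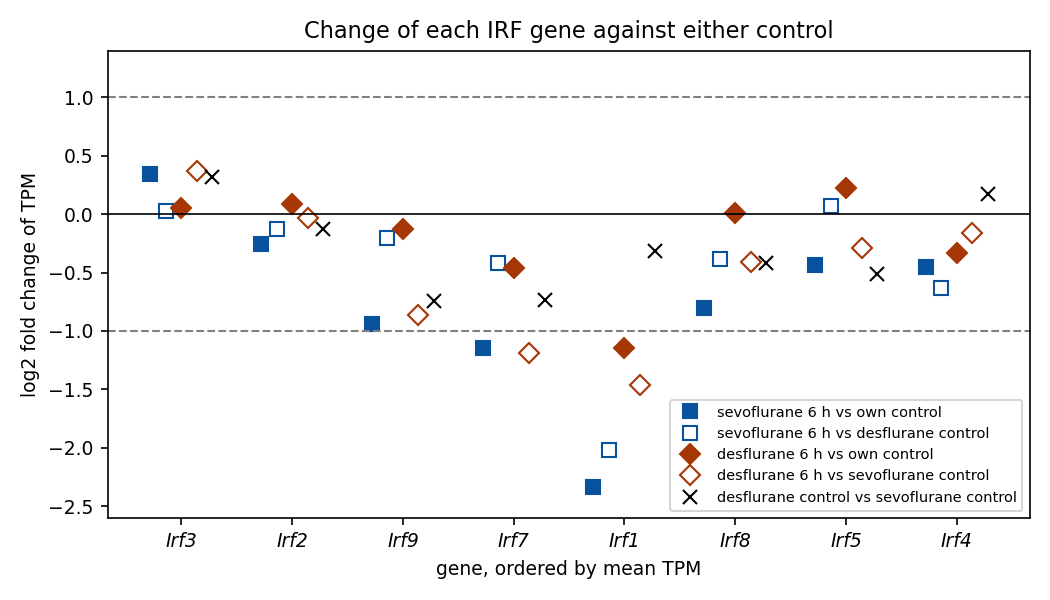
Log2 fold change of TPM for each IRF gene against the own control (filled symbols) and the other control (open symbols), with crosses for the difference between the 2 controls and dashed lines at the 2-fold limit. All 4 Irf1 comparisons of a 6 h library with a control lie below the lower line (-2.34 to -1.15), whereas Irf7 crosses it only against the sevoflurane control.

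The median change of the 8 members in log2(TPM + 1) was -0.55 with sevoflurane against its own control, whereas the median of all 9136 genes was 0.05. With desflurane the medians were -0.04 and 0.11. Against the other control, the members' median was -0.18 with sevoflurane and -0.31 with desflurane (0.07 and 0.09 for all genes), and between the controls it was -0.35 (desflurane against sevoflurane control), with -0.03 for all genes. The members' median between the controls therefore was larger in size than the median with desflurane. As all genes had a median log2 fold change of 0.12 with desflurane, changes with this agent are to be read relative to that shift.

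The genes that act before the IRFs were largely within the 2-fold limit. Interferon ligands were near or below detection, with 6 of 12 listed genes in the tables and none called against the own control. Ifnk, a type I interferon of epithelia, had the highest values with 1.38, 1.34, 1.92, and 3.13 TPM in the sevoflurane control, sevoflurane 6 h, desflurane control, and desflurane 6 h libraries. Ifng, the gene of interferon gamma, had 0.438 TPM in the sevoflurane control and was listed at 0 in the others.

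The 10 receptor, kinase, and STAT genes had a median change in log2(TPM + 1) of -0.07 with sevoflurane and 0.29 with desflurane against the own control. Stat2, the gene of an ISGF3 subunit, had 50.3 TPM in the sevoflurane control, 52.9 at sevoflurane 6 h, 42.0 in the desflurane control, and 53.1 at desflurane 6 h, and was not called. The kinase gene Jak1 had 105, 101, 103, and 107 TPM in the same order. The interferon gamma receptor gene Ifngr1 had 31.4, 32.2, 28.7, and 38.6 TPM.

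Of 24 sensor, adaptor, and kinase genes upstream of IRF3, IRF5, and IRF7, 3 (Tlr7, Zbp1, and Tank) were called lower with sevoflurane, with a median change in log2(TPM + 1) of -0.14. With desflurane, 0 were called, with a median of 0.10. The shares of all genes called lower were 3.38% with sevoflurane and 1.53% with desflurane, each against its own control. Tank, an adaptor of the kinase TBK1, had 10.3 TPM in the sevoflurane control, 4.62 at sevoflurane 6 h, 7.63 in the desflurane control, and 11.1 at desflurane 6 h. Ddx58, the gene of the RNA sensor RIG-I, had 37.8, 25.1, 33.8, and 23.8 TPM and was low in both 6 h libraries. No gene of this list was called with sevoflurane against the desflurane control, where 2.64% of all genes were lower and 2.60% higher. The kinase gene Irak1 (65.3, 78.6, 66.6, and 66.1 TPM), Chuk (30.3, 38.9, 28.6, and 37.7 TPM), and Irak4 (3.61, 5.16, 4.43, and 5.02 TPM) were not called.

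Most of the called genes in these lists were downstream of the IRFs. Of 24 genes known as IRF1 targets, 21 were above 2 TPM in either library and could be called. With sevoflurane, 12 were called lower against its own control, with a median change of -0.85, and 8 when set against the other control (-0.63). Those called against both controls included the guanylate-binding protein genes Gbp2 and Gbp5, the immunoproteasome genes Psmb8 and Psmb9, and the chemokine gene Cxcl10. The peptide transporter gene Tap1 and the class II transactivator gene Ciita were called against its own control only. With desflurane, 0 were called against its own control, with a median of -0.27, and 6 against the sevoflurane control (-0.53). The controls differed in this list as well, with 4 genes called lower in the desflurane control (-0.41), compared with 1.20% of all genes. The shares of all genes called lower against the own and the other control were 3.38% and 2.64% with sevoflurane and 1.53% and 1.64% with desflurane.

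The order of the libraries differed among the IRF1 targets. Gbp2 had 30.1 TPM in the sevoflurane control, 4.60 at sevoflurane 6 h, 14.7 in the desflurane control, and 9.25 at desflurane 6 h. The immunity-related GTPase gene Igtp had 107, 30.8, 51.6, and 28.8 TPM. The immunoproteasome gene Psmb10 had 41.0, 23.9, 41.4, and 21.3 TPM and was low in both 6 h libraries, without passing the limit. By contrast, B2m, the class I MHC light chain gene, had 982, 637, 769, and 809 TPM, and Tapbp, the tapasin gene, had 53.2, 38.7, 49.0, and 42.2 TPM. Vcam1, an adhesion molecule gene (7.17, 4.49, 4.50, and 7.95 TPM), and the chemokine gene Ccl5 (11.0, 9.39, 9.02, and 11.5 TPM) had their highest values after 6 h of desflurane.

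Of 26 genes known as ISGF3 targets, 10 were called lower with sevoflurane against its own control (median -0.53) and 6 against the desflurane control (-0.43). With desflurane, 2 (Mx2 and Isg15) were called lower against its own control (-0.29) and 6 against the sevoflurane control (-0.52). Beside these counts, 3.38% and 2.64% of all genes were called lower with sevoflurane and 1.53% and 1.64% with desflurane, in the same order of controls. Mx2 had 29.1 TPM in the sevoflurane control, 12.4 at sevoflurane 6 h, 29.3 in the desflurane control, and 9.38 at desflurane 6 h, so that both controls were nearly equal and both 6 h libraries low. Its relative Mx1 had 15.1, 4.09, 9.28, and 6.38 TPM. The most abundant members of the list were not called: Ifi27 had 445, 418, 417, and 388 TPM, Bst2, the tetherin gene, 155, 141, 189, and 150 TPM, and Ifi27l2b 106, 96.7, 120.5, and 78.7 TPM. Trim25, a ubiquitin ligase gene that acts on RIG-I, was highest after 6 h of desflurane (52.2, 54.9, 61.2, and 76.6 TPM).

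**Figure D3:**
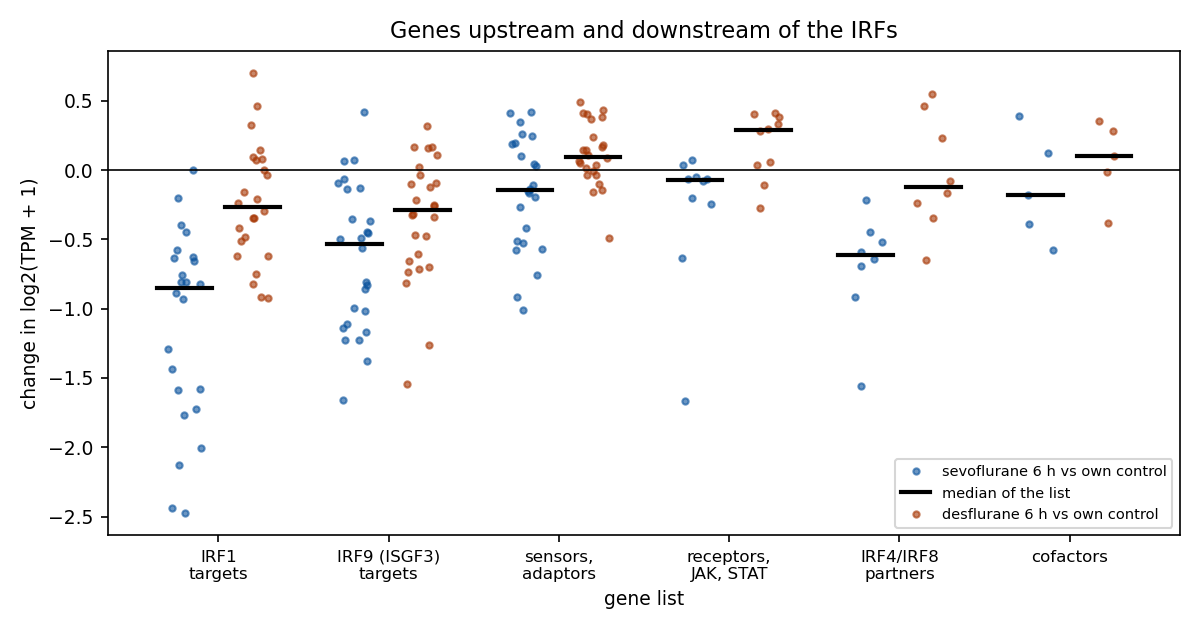
Change in log2(TPM + 1) against the own control for the genes of 6 lists around the IRFs, 1 point per gene, with blue points for sevoflurane, orange points for desflurane, and black bars for list medians. The medians of the IRF1 targets are -0.85 and -0.27, and those of the receptor, JAK, and STAT genes are -0.07 and 0.29.

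Of the 8 genes of DNA-binding partners of IRF4 and IRF8, 4 were above 2 TPM in a 6 h library or its own control. With sevoflurane, 1 (Bcl6) was called lower against its own control (median -0.61), compared with 3.38% of all genes. With desflurane, 0 were called (-0.12), compared with 1.53% of all genes lower and 2.84% higher. Spi1, the PU.1 gene, had 22.0 TPM in the sevoflurane control, 11.2 at sevoflurane 6 h, 14.3 in the desflurane control, and 12.0 at desflurane 6 h. Ikzf1, a lymphoid zinc finger gene, had 6.35, 3.72, 4.99, and 4.69 TPM. Bcl6, a repressor gene, had 50.7, 16.6, 5.87, and 8.49 TPM and differed 8.64-fold between the controls, so that it was called higher with sevoflurane against the desflurane control. Of 5 genes of IRF cofactors and regulators of IRF protein, 0 were called with either agent. In the same comparisons, 3.38% of all genes were called lower with sevoflurane and 1.53% with desflurane. Trim21, a ubiquitin ligase gene, had 22.9, 15.1, 22.6, and 17.1 TPM and Irf2bpl, a relative of the IRF2-binding proteins, 20.7, 15.6, 23.5, and 25.3 TPM.

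Several immune cell markers were lower beside the IRFs with sevoflurane, in larger number against its own control, the library that stood apart, than against the desflurane control. The shares of all genes called lower with sevoflurane were 3.38% against its own control and 2.64% against the desflurane control. The summed TPM of 10 markers of all leukocytes was 217.6 in the sevoflurane control, 114 at sevoflurane 6 h, 157 in the desflurane control, and 147 at desflurane 6 h, and 3 (Ptprc, Cd53, and Tyrobp) were called lower with sevoflurane against its own control and 1 (Ptprc) against the desflurane control. The summed TPM of 12 macrophage and Kupffer cell markers was 857, 543, 675, and 802 in the same order, with 4 called lower with sevoflurane against its own control (Csf1r, Marco, Cd5l, and Adgre1) and 2 (Marco and Cd5l) against the desflurane control. Of 11 T and NK cell markers, 4 were above 2 TPM in either sevoflurane library. Of the 11, 3 (Cd8a, Nkg7, and Prf1) were called lower with sevoflurane against its own control and 1 (Cd8a) against the desflurane control. The sums were 32.2, 23.1, 30.7, and 32.3, and most of each was Cd4 (19.1, 18.3, 21.8, and 23.3 TPM), which was not called. The sum thus mainly followed 1 gene. Cd3d and Cd3g were at 0 in the desflurane control. Sums of B and plasma cell markers were 5.82, 2.77, 3.42, and 3.38, with 1 of 5 (Cd79b) called lower with sevoflurane against its own control. Against the desflurane control, none of the 5 was above 2 TPM in either library, so that none could be called. Cd79b was 6.63-fold lower there (1.99 TPM in the desflurane control and 0.300 at sevoflurane 6 h). With desflurane, 0 markers of these 4 lists were called against either control, where 1.53% (own) and 1.64% (other) of all genes were called lower. No B and plasma cell marker was above 2 TPM in either desflurane library, so none could be called against the own control. Sums were 5.74, 4.23, 4.77, and 5.66 for 5 dendritic cell markers and 2.70, 2.72, 4.17, and 1.31 for 5 neutrophil markers, with Mpo at 0 in both sevoflurane libraries. They were 181, 168, 176, and 197 for 5 endothelial markers. None of these 3 lists held a called gene. However, no neutrophil marker and only 1 dendritic cell marker (Clec9a) was above 2 TPM, so the others could not be called. All 6 pancreatic acinar genes were called lower than in the sevoflurane control in each of the other libraries, the desflurane control included. Against the desflurane control none was above 2 TPM, so that none could be called with either agent. The part of these cells in the IRF values was not tested.

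As a measurement beside these sums, each IRF was divided by the summed TPM of the 10 leukocyte markers in the same library, a calculation added after the data were seen. Irf1 was then 10.9% of the marker sum in the sevoflurane control, 4.12% at sevoflurane 6 h, 12.2% in the desflurane control, and 5.87% at desflurane 6 h, and it was 2.65-fold lower with sevoflurane and 2.08-fold lower with desflurane. Divided by the macrophage and Kupffer cell sum, Irf1 was 3.20-fold lower with sevoflurane and 2.63-fold lower with desflurane. Irf8 was 7.02%, 7.66%, 7.28%, and 7.80% of the leukocyte sum, with no low value after sevoflurane. Irf9 was 15.8%, 15.7%, 13.1%, and 12.8%, and Irf7 was 16.3%, 14.0%, 13.6%, and 10.5%. Irf3 was 23.3%, 56.1%, 40.3%, and 44.5% and was thus higher after sevoflurane on this scale. Hepatocytes also express several IRFs, for which a ratio to leukocyte genes has no direct meaning.

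**Figure D4:**
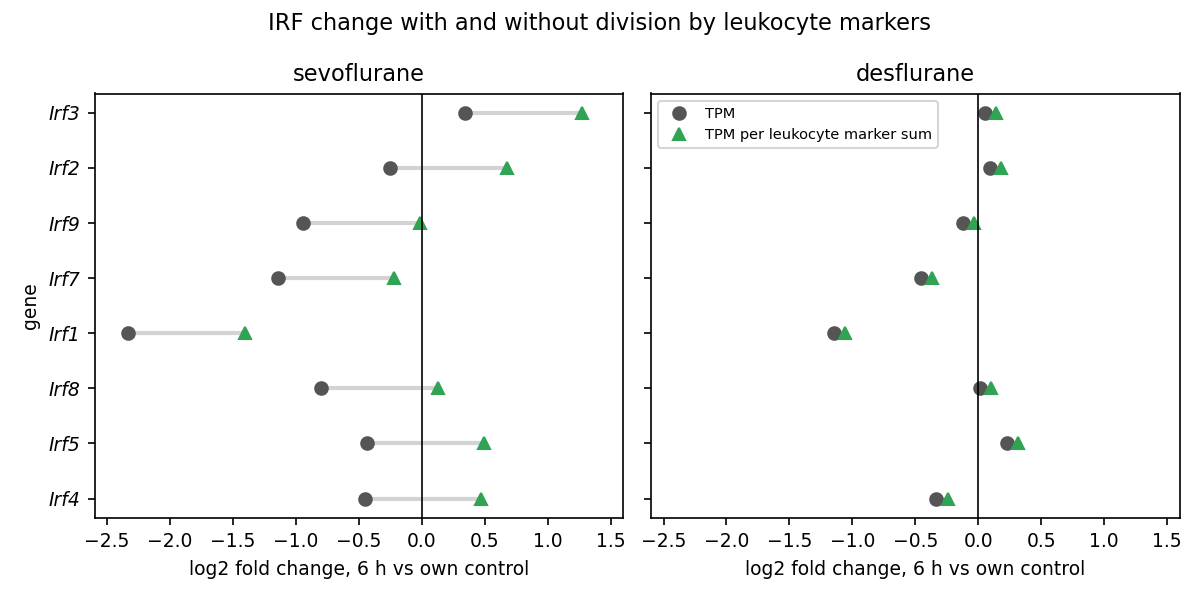
Log2 fold change of each IRF gene against the own control, from TPM (grey circles) and from TPM divided by the summed leukocyte markers (green triangles), for sevoflurane (left) and desflurane (right). Irf1 lies lowest in all series, at -2.34 and -1.41 with sevoflurane and at -1.15 and -1.06 with desflurane, whereas the Irf8 and Irf9 triangles lie near 0.

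The genes whose profiles over the 4 libraries were nearest to each IRF were found by the root mean square distance between centred log2(TPM + 1) values among the 9136 genes. With 4 libraries this measure describes likeness only. Irf1 was nearest to Irgm (distance 0.10), with 56.4 TPM in the sevoflurane control, 13.3 at sevoflurane 6 h, 40.3 in the desflurane control, and 20.9 at desflurane 6 h, followed by Edar (0.11) and Cml2 (0.12). Irgm, an immunity-related GTPase gene, was also in the list of IRF1 targets. Irf9 was nearest to Casp1 (0.02), Fcer1g (0.03), and Lgals5 (0.03), of which Casp1 was in the IRF1 target list and Fcer1g in the leukocyte marker list. Irf8 was nearest to Clec4a3 (0.0087), a C-type lectin gene, then Napsa and Cnp, and Irf5 to Mnda (0.02), a gene of myeloid cells, then Nprl2 and Plekha3. Irf7 was nearest to Apol9a (0.07), then Hao2 and Acnat2. The flat profiles of Irf2 (Lbh, Pcdhga10, and Med31) and Irf3 (Ammecr1l, Secisbp2l, and Galnt10) were matched by genes with as little change.

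The tables also hold transcripts assembled from the reads, and the assembled row at each locus (same strand, largest overlap) was set beside the annotated row. For Irf1 the assembled TPM was 23.8 in the sevoflurane control, 5.11 at sevoflurane 6 h, 19.1 in the desflurane control, and 8.65 at desflurane 6 h, which was 4.65-fold and 2.21-fold lower than the own control. Irf7 was 2.15-fold and 1.36-fold lower with sevoflurane and desflurane in these rows, and Irf8 1.67-fold and 1.09-fold lower. The log2 fold change of Irf9 was -0.59 and -0.45 in these rows, but its assembled row in the sevoflurane control ran from 34270631 to 34289433 and so beyond the annotated gene. Irf5 had 8.22, 4.34, 4.79, and 4.83 TPM in the assembled rows and was 1.90-fold lower with sevoflurane, compared with 1.35-fold in the annotated rows. Its assembled row in the sevoflurane control was 1 of 2 at this locus and overlapped 91.0% of the annotated gene.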

How the data were processed

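Members and gene lists were chosen with earlier results of these data known. Liver RNA of 4 rats was measured by RNA sequencing, 1 library per condition, with conditions taken from the labels. The authors trimmed the reads, mapped them to rn6 with HISAT2, sorted them with SAMtools, and ran StringTie with the refGene annotation. The labels and the methods name different Illumina total RNA kits. The tables deposited by the authors give coverage per gene (a signal not normalized for depth), FPKM normalized for depth, and TPM, a signal that the authors' run scaled so that assembled rows alone make up the full TPM total; annotated rows share that scale. No read counts were used here, so counting intervals were not calculated, and depth came from the ratio of FPKM to coverage.

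Annotated rows longer than 200 base pairs were kept, and TPM was summed per symbol. Fold changes used no pseudocount, and medians used log2(TPM + 1). All members were named, with the 3 most abundant and the extreme genes of each list (mean TPM above 1) and the 3 nearest profiles of each member above 2 TPM; called genes are named after their values were seen. Of the list genes, Ifnar2, Ticam1, and Nlrc5 and others without a row were not analysed here. Results for certain listed genes are not reported here. Promoters were searched in the RefSeq table (GRCr8); other coordinates are rn6. Alternatives changed the TPM limit, fold limit, pseudocount, scaling, rows, and control. Python 3.11.15, numpy 2.4.6, pandas 2.3.3, and matplotlib 3.10.9 were used.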

Additional observations from a re-analysis of the deposited data

Results flagged for a closer look

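The changes of several genes and lists had opposite signs with the 2 agents, each against its own control. With 1 library per condition, these differences were not tested, and all genes had a median log2 fold change of 0.12 with desflurane. The log2 fold change of Irf8 was -0.80 with sevoflurane and 0.01 with desflurane, a difference of 0.81, but with desflurane it was -0.41 against the sevoflurane control and -0.12 after median-of-ratios scaling, the same sign as with sevoflurane. That of Irf5 was -0.44 and 0.22, a difference of 0.66, and both signs turned when the controls were exchanged. That of Irf2 was -0.25 and 0.09, a difference of 0.34, and with desflurane it was -0.04 after median-of-ratios scaling. Of the lists, the median change in log2(TPM + 1) of the receptor, kinase, and STAT genes was -0.07 with sevoflurane and 0.29 with desflurane, a difference of 0.36. The median of the IRF cofactors was -0.18 and 0.10, a difference of 0.28, and that of the sensors, adaptors, and kinases was -0.14 and 0.10, a difference of 0.24. Both desflurane medians of 0.10 were close to the median of all genes on that scale (0.11). With the controls exchanged, the medians with sevoflurane and desflurane were 0.04 and 0.05 for the receptor, kinase, and STAT genes, without opposite signs. They were 0.01 and -0.03 for the cofactors, so that both signs turned. For the sensors, adaptors, and kinases they were -0.06 and 0.08.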

How the results depend on the processing

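Irf1 was called lower with both agents under all 12 settings, with log2 fold changes of -2.39 to -1.41 with sevoflurane and -1.46 to -1.06 with desflurane. A TPM limit of 1 and a fold limit of 1.5 could not remove a call. The TPM and fold limits and the length filter left the fold change itself unchanged. Members called lower with sevoflurane numbered 2 in the report, 4 with a fold limit of 1.5 (Irf1, Irf7, Irf8, and Irf9), and 1 (Irf1) with the other control, with the mean of both controls, or after division by the leukocyte marker sum. After that division, 1 member (Irf3) was called higher with sevoflurane. Members called lower with desflurane numbered 2 (Irf1 and Irf7) with the other control and 1 in the report. Where it was calculated, the members' median stayed below 0, at -0.62 to -0.18 with sevoflurane and -0.31 to -0.04 with desflurane. It was not calculated after the division by the leukocyte marker sum. After that division, Irf2, Irf3, Irf4, Irf5, and Irf8 had log2 fold changes above 0 with sevoflurane, and the other members below. With desflurane, those of Irf2, Irf3, Irf5, and Irf8 were above 0, and the others below. The median-of-ratios scaling, the assembled rows, and the annotated rows rescaled to a common sum left the counts of called members as in the report. Assembled rows, the rescaling, and the division were chosen after seeing the data. No paired analysis was possible because each condition had 1 library and no test was made. The lack of replicates limits every value here, and no library could be left out.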
